A study of Mus musculus with 12 samples.

Results

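Cortical cultures carrying a miR-29c lentivirus were compared after oxygen-glucose deprivation (OGD) and after sham treatment. The groups were defined by the sample labels, which gave 6 of the 12 libraries of the study: 3 labelled OGD-miR-29 and 3 labelled sham-miR-29. The comparison was chosen with earlier results of these data known. All 6 cultures came from the cortex of C57BL6 mouse embryos of age E16.5-E17.5, and all 6, the sham cultures included, received the miR-29c virus at a total multiplicity of infection of 2. Infection was on day 6 in vitro and treatment on day 14. OGD lasted 3 h and was followed by 4 h in normal medium, whereas sham cultures were rinsed with the same buffer and kept in normal oxygen. The design text does not say whether the sham incubation held glucose, nor which promoter drove the miRNA or which cells took up the virus. Replicates were dissected on distinct days, so a replicate number stands for a day shared by 1 sham and 1 OGD culture. RNA depleted of ribosomal RNA was sequenced, and reads were counted per gene.

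OGD takes away both oxygen and glucose, and is used in culture as a stand-in for ischemic stroke. Among the systems that such injury is known to engage are zinc buffering, antioxidant and chaperone programmes, the unfolded protein response, the hypoxia programme and the activity-regulated transcription of neurons. Metallothioneins are small cysteine-rich proteins that bind zinc and copper. Free zinc activates the transcription factor MTF1, which binds metal response elements in the promoters of metallothionein genes and of Slc30a1, the zinc exporter of the plasma membrane. The miR-29 family represses, among others, enzymes of DNA methylation, collagens and BH3-only proteins of the BCL2 family. The question the comparison addresses is which transcripts differ after OGD when miR-29c is supplied.

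The miRNA that all 6 cultures carried is shown with its family, because the seed (bases 2 to 8, in capitals) is what its members share and what pairs with targets. The mature sequences are those of RefSeq, build GRCm38.p6. miR-29c-3p lies at chr1:195037600-195037621 on the plus strand.
mmu-miR-29c-3p: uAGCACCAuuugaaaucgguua
mmu-miR-29a-3p: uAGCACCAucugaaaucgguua
mmu-miR-29b-3p: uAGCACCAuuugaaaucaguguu
The seed AGCACCA is the same in all 3. Levels of mature miR-29c were not analysed here.

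The promoters of the 2 genes called in this comparison and of Slc30a1 are shown, because they are the classical carriers of metal response elements. Each run holds 250 bases before to 50 bases after the RefSeq start of the gene, 5′ to 3′ on the gene's strand, and capitals mark matches to the core of the element, searched as TGCACNC and TGCGCNC on both strands. These motifs differ at 1 base and cannot match the same bases on 1 strand. Mt1 was read at chr8:94178839-94179138, Mt2 at chr8:94172368-94172667 and Slc30a1 at chr1:191906531-191906830, all on the plus strand of GRCm38.p6.
Mt1: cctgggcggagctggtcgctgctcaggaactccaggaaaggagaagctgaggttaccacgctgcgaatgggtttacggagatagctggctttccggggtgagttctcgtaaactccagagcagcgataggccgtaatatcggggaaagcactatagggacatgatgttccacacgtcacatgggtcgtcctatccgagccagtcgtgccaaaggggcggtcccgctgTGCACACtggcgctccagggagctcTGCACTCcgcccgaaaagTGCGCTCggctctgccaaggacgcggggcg
Mt2: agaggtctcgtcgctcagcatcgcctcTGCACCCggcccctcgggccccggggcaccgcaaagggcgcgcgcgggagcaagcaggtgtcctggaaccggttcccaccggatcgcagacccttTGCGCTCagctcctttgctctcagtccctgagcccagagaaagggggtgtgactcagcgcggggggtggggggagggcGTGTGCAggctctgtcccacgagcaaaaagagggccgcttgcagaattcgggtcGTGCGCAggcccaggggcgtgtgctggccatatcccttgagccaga
Slc30a1: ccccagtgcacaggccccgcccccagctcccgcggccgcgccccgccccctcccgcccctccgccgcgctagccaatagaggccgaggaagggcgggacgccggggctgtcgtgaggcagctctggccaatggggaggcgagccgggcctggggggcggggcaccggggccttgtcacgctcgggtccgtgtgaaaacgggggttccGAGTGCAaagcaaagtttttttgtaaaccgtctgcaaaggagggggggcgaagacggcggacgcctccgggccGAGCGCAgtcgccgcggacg
The Mt1 window held 3 matches, the Mt2 window 4 and the Slc30a1 window 2. Of the 32851 promoters in the RefSeq table, 25.7% held at least 1 match, 7.11% at least 2, 1.97% at least 3 and 0.52% at least 4. The window of Mt3, the metallothionein of neurons, held 1. Other windows scanned were those of Fosl2, which held 2 matches, Ddit3, which held 1, and Homer1, whose windows held 0. A match describes the letters in the window and is no measure of binding.

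Depth was low. Summed counts per library were 1901594 to 6616920, of which mitochondrial rows made up 74.1% to 82.3%. This left 493052 to 1174496 counts for all other genes. From the values, a read appeared to be counted for several genes. The counting region is not stated in the sources. It was assumed here to be the gene plus 10 kb downstream, with neighbours on either strand. All statements below on shared reads rest on this assumption. Neighbours that held at least 0.5 of a gene's own count are therefore named beside it, and such genes are uncertain. In a principal component analysis of the 6 libraries the first component held 43.2% of the variance and the sham libraries lay at -44.12 to -0.78 and the OGD libraries at 1.64 to 35.51, with OGD-miR-29 replicate 1 next to sham-miR-29 replicate 3. Levels are given as CPM, counts scaled to a common library size, after TMM scaling, a factor that aligns libraries on the bulk of their genes, and differences are log2 fold changes of OGD over sham with their standard error. The test was the quasi-likelihood F test of edgeR in 1 fit with the 5 usable libraries of empty-virus cultures, and were called at an adjusted p under 0.05.

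OGD raised 2 genes in miR-29 cultures, Mt1 and Mt2, and no gene was called lower (0.0%). The called share was 0.0165% of 12119 genes tested. DESeq2 and limma-voom also called 2 genes, both higher. An unadjusted p under 0.05 was reached by 1111 genes (9.17%), of which 511 had higher (4.22%) and 600 lower (4.95%) values after OGD. Libraries of the groups did not overlap for 992 genes with higher values (8.19%) and 1053 with lower values (8.69%), and all 3 pairs went the same way for 2316 (19.1%) and 2268 (18.7%). These shares over all genes are the background for the counts of list members given below. With the replicate day as a block the called genes were 5 (0.0413%): Mt1, Mt2 and Ccdc114 higher, and Cdr1 and Tshz1 lower. The plot of fold change against p sets the metallothioneins apart from the other genes.

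**Figure D1:**
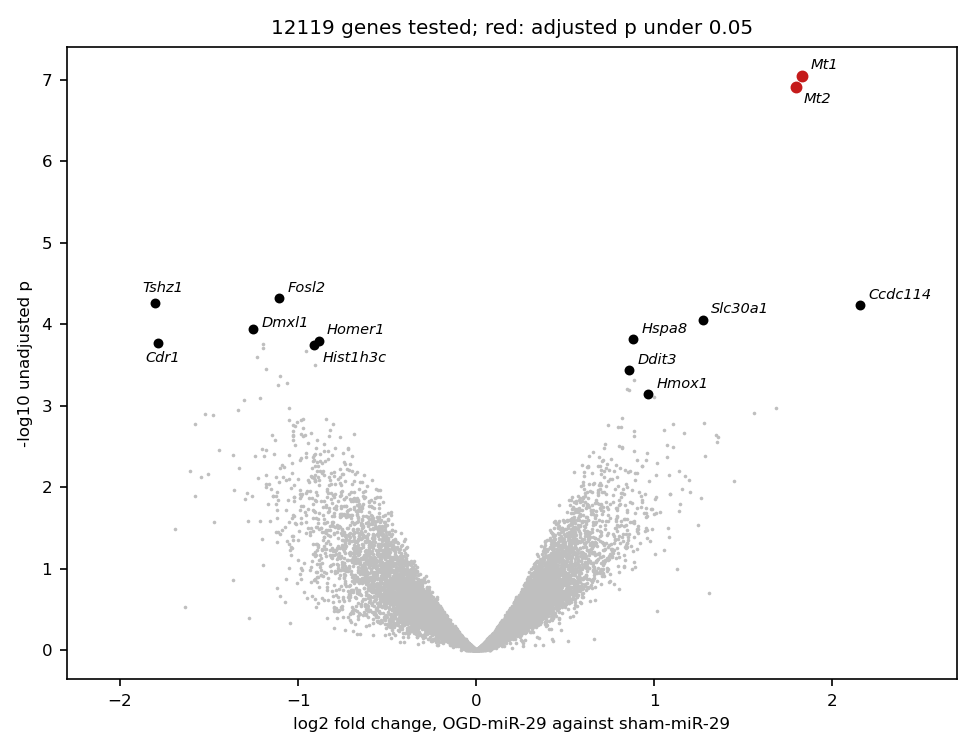
Log2 fold change of OGD-miR-29 against sham-miR-29 cultures (x axis) and -log10 of the unadjusted p (y axis) for the 12119 genes tested, each point a gene. The red points, Mt1 and Mt2, are the genes with an adjusted p under 0.05, and black points are other genes named in the text.

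Mt1 was measured at 24.6, 14.6 and 20.8 CPM in sham replicates 1 to 3 (counts of 65, 38 and 81) and at 77.7, 85.9 and 50 CPM after OGD (counts of 423, 218 and 104). Every OGD library was above every sham library, and replicate 3 showed the smallest gap. The means were 20.03 ± 5.07 CPM and 71.2 ± 18.8 CPM (SD, n = 3), and the log2 fold change was 1.83 ± 0.23 (adjusted p = 0.000743). Mt2, at chr8:94172664-94173568, lies upstream of Mt1 (chr8:94179082-94180327) on the same strand, so its count can hold Mt1 reads, which amounted to 0.7252 of its own count. Mt2 stood at 32.99, 25.4 and 25.97 CPM in sham and 109, 116 and 65.9 CPM in OGD libraries, with the same order of libraries within the OGD group as Mt1. Its log2 fold change was 1.79 ± 0.23 (adjusted p = 0.000743). Mt2 counts were 87, 66 and 101 in sham and 595, 295 and 137 after OGD, above the Mt1 count in each library. Mt1 has no counted gene in its own counting region, and the Mt2 result is not fully separate from it. Both were called in 24 of 25 alternative analyses, and the exception was the omission of replicate 1 from all groups (Mt1 1.95, Mt2 1.85, adjusted p = 0.145 for each), which left n = 2 per miR-29 group.

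Slc30a1 exports zinc from the cytosol and is the third classical MTF1 target. Its level was 8.72, 11.9 and 6.69 CPM in the sham libraries and 18, 24.8 and 23.1 CPM after OGD. The groups did not overlap, but the log2 fold change of 1.27 ± 0.26 did not pass the test over all genes (adjusted p = 0.171, and 0.154 with the replicate block). It was called in 7 of 25 alternatives, among them the fit with a replicate block on counts corrected for gene span (1.14 ± 0.24, adjusted p = 0.0327). Mt3, which binds zinc and copper in neurons, was at 10.6, 9.61 and 10.5 CPM in sham and 14.3, 16.9 and 13.9 CPM in OGD libraries, again without overlap (0.55 ± 0.22, adjusted p = 0.504). Mtf1 itself was at 21.2, 19.2 and 19.8 CPM and 16.7, 19.3 and 22.6 CPM, and the groups overlapped (-0.06 ± 0.21, adjusted p = 0.951; Maneal held a similar count in its region). The sign of the Mtf1 value is not determined: it was positive in 5 alternatives.

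Across the metallothionein and zinc transport list, 18 of 24 genes were tested, 2 rose, 0 fell, and 5 had higher and 1 lower values at an unadjusted p under 0.05. The median log2 fold change of the list was 0.06, against 0.00 over all genes. The members with higher values at that p were Mt1, Mt2, Mt3, Slc30a1 and the zinc transporter Slc39a13. The importer Slc39a11 was on the lower side (-0.54 ± 0.24, adjusted p = 0.528; Cog1 in its region). The plot of levels by library shows these genes beside other stress and activity genes.

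**Figure D2:**
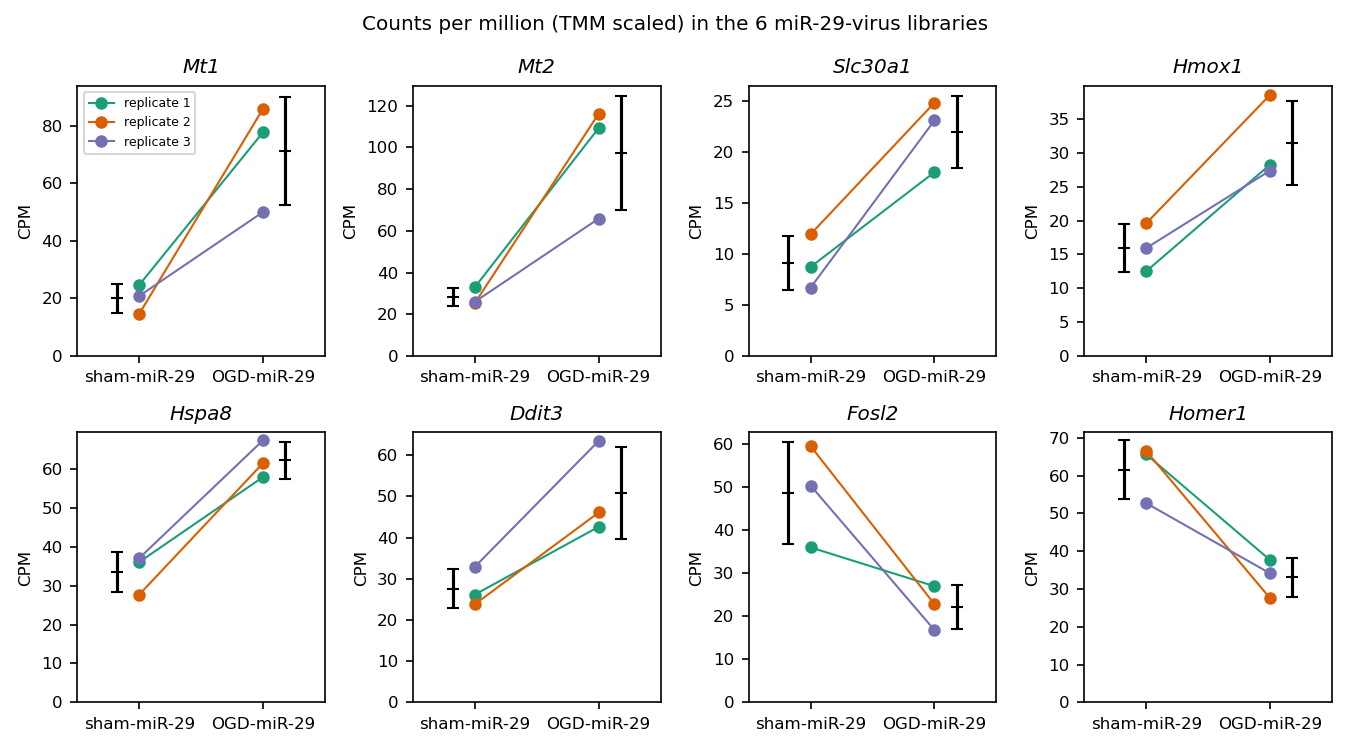
CPM after TMM scaling (y axis, from 0) in the 3 sham-miR-29 and 3 OGD-miR-29 libraries for 8 genes; lines join the cultures of 1 dissection day and black marks with bars give the mean ± SD. In all 8 genes the OGD libraries lie wholly above (Mt1, Mt2, Slc30a1, Hmox1, Hspa8, Ddit3) or wholly below (Fosl2, Homer1) the sham libraries.

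Of the 3 genes that joined with the replicate block, Ccdc114, which encodes a docking factor of ciliary outer dynein arms, was rare, with counts of 5, 5 and 6 in sham and 30, 20 and 25 in OGD libraries. Its levels were 1.90, 1.92 and 1.54 CPM and 5.51, 7.88 and 12.02 CPM, without overlap. The log2 fold change was 2.15 ± 0.43, with an adjusted p of 0.142 without and 0.0387 with the block. Tshz1, a teashirt-family zinc finger transcription factor, went from 6.83, 10.4 and 7.46 CPM in sham to 2.02, 3.15 and 1.92 CPM in OGD libraries. The groups did not overlap, and the log2 fold change of -1.80 ± 0.36 had an adjusted p of 0.142 without and 0.0395 with the block. Cdr1 was at 8.72, 9.99 and 5.40 CPM in sham and 2.76, 1.58 and 1.92 CPM after OGD, likewise without overlap (-1.79 ± 0.39, adjusted p = 0.171 without and 0.0395 with the block). The Cdr1 count cannot be told apart from that of C230004F18Rik, which overlaps it and held 2.2581 times its count.

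Antioxidant and chaperone genes lay mostly on the higher side after OGD, but none of them was called. Hmox1, the inducible heme oxygenase and a target of NRF2, was at 12.5, 19.6 and 15.9 CPM in sham and 28.3, 38.6 and 27.4 CPM in OGD libraries. These did not overlap, and the log2 fold change was 0.97 ± 0.25 (adjusted p = 0.333; called in 4 of 25 alternatives). Of the 24 measured NRF2 and antioxidant genes (25 listed), 18 had positive log2 fold changes, with 3 higher and 0 lower at an unadjusted p under 0.05 and a median of 0.22. Prdx5, a peroxiredoxin, was another (0.66 ± 0.26, adjusted p = 0.49), whereas the cystine-glutamate exchanger Slc7a11 stood at 6.83, 8.07 and 4.89 CPM in sham and 8.27, 5.91 and 9.13 CPM in OGD libraries, which overlapped (0.27 ± 0.28, adjusted p = 0.775). The sign of the Slc7a11 value turned without replicate 3.

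Hspa8, the constitutive cytosolic HSP70 chaperone, was measured at 36.02, 27.7 and 37.03 CPM in sham and 57.9, 61.4 and 67.3 CPM in OGD libraries. The OGD libraries were all above the sham libraries (0.88 ± 0.19, adjusted p = 0.171; called in 6 of 25 alternatives). The snoRNA Snord14c, encoded within Hspa8, held 0.5195 of its count. Among the 15 measured cytosolic heat shock genes (20 listed), 2 had higher and 0 lower values at an unadjusted p under 0.05, with a median of 0.18. The other was Dnajb1, an HSP40 co-chaperone (0.63 ± 0.26, adjusted p = 0.506), while Hspa4l, an HSP110-family member, was lower in 3 of 3 pairs (-0.50 ± 0.29, adjusted p = 0.599). Hspa1a, the inducible HSP70 gene, was not analysed here. Of 10 mitochondrial chaperones and proteases, Clpp and Clpx, which form the matrix protease ClpXP, had unadjusted p-values under 0.05 (0.76 ± 0.26 with Gtf2f1 in its region, and 0.73 ± 0.31), and the list's median was 0.22.

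In the endoplasmic reticulum, 5 of 19 measured chaperone and quality control genes (20 listed) had higher and 0 had lower values at an unadjusted p under 0.05, and the median was 0.17. Creld2, a secreted factor induced by endoplasmic reticulum stress, was rare but separated the groups, at 1.90, 2.69 and 1.80 CPM in sham and 4.59, 6.70 and 5.29 CPM in OGD libraries (1.35 ± 0.39, adjusted p = 0.427). Herpud1, part of the degradation machinery of that compartment, was at 21.6, 20.4 and 23.9 CPM and 24.98, 44.1 and 40.9 CPM, also without overlap (0.71 ± 0.23, adjusted p = 0.452). Hspa5, the central chaperone BiP, overlapped between groups (104, 92.2 and 129 CPM in sham, 121, 111 and 201 CPM after OGD; 0.41 ± 0.22, adjusted p = 0.574; Rabepk in its region). The largest Hspa5 value was that of OGD replicate 3.

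The transcription factors of the integrated stress response had values of either sign, with no member called. Ddit3, the pro-apoptotic factor CHOP, was at 26.2, 23.8 and 32.9 CPM in sham and 42.6, 46.1 and 63.5 CPM after OGD, without overlap (0.86 ± 0.20, adjusted p = 0.233; Mars held 1.2486 times its count). Atf4, the factor translated when eIF2α is phosphorylated, was at 65.2, 49.96 and 69.4 CPM and 80.3, 80.3 and 68.3 CPM, and the groups overlapped (0.31 ± 0.19, adjusted p = 0.617; Rps19bp1 in its region). Atf3 was at 17.4, 14.6 and 24.9 CPM in sham and 13.2, 14.6 and 13.9 CPM after OGD (-0.47 ± 0.23, adjusted p = 0.549). Its OGD libraries were all lower, but in replicate 2 the groups nearly tied (14.60 CPM in sham, 14.57 CPM after OGD). The amino acid transporter Slc7a5, a target of Atf4, also had lower values (-0.59 ± 0.25, adjusted p = 0.516; Gm20388 spans it and held 46.8185 times its count). Of 21 measured genes of the list (23 listed), 1 was higher and 1 lower at an unadjusted p under 0.05, with a median of 0.11. In a fit corrected for gene span, with the replicate block, the medians of the stress lists were smaller: 0.13 for the antioxidant, 0.10 for the heat shock, 0.14 for the mitochondrial chaperone, 0.07 for the endoplasmic reticulum and 0.03 for the integrated stress response list.

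Genes of the hypoxia list showed small differences 4 h after oxygen returned. Bhlhe40, a hypoxia-responsive repressor outside the list, had a log2 fold change of 1.68 (adjusted p = 0.414). It was named after its values were seen. P4ha1, a collagen prolyl hydroxylase, was at 5.31, 3.46 and 7.71 CPM in sham and 9.19, 12.2 and 9.62 CPM in OGD libraries (0.84 ± 0.29, adjusted p = 0.463). Ndrg1 (0.69 ± 0.29; Wisp1 in its region) and the angiogenic growth factor Vegfa (7.20, 6.92 and 7.71 CPM in sham, 9.74, 9.06 and 12.98 CPM after OGD; 0.51 ± 0.29, adjusted p = 0.594) were likewise non-overlapping and higher. Arnt, the constitutive partner of HIF-1α, was on the lower side (-0.75 ± 0.37, adjusted p = 0.551). In this list 3 genes separated the groups upward and 3, Arnt, Egln1 and Ero1l, downward (8.19% and 8.69% over all genes). Egln1 and Ero1l were named after their values were seen. Of 17 measured HIF-regulated genes (24 listed), 2 were higher and 0 lower at an unadjusted p under 0.05 (4.22% and 4.95% over all genes). The list median was 0.15 (-0.03 without OGD-miR-29 replicate 3). Glycolytic enzymes had a median of 0.18, and 3 of 22 measured (23 listed) were higher and 0 lower at that p. These included Tpi1, triose-phosphate isomerase (39.8, 39.6 and 55.03 CPM in sham, 56.4, 58.3 and 109 CPM after OGD, without overlap; 0.72 ± 0.24, adjusted p = 0.452; Spsb2 in its region) and the neuronal enolase Eno2 (0.46 ± 0.19, adjusted p = 0.506).

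Among lists with at least 3 measured members, the most positive medians were those of the proteasome, of nuclear-encoded oxidative phosphorylation and of cytosolic ribosomal proteins, with no member called. In the proteasome, which degrades ubiquitinated proteins, 28 of 31 subunits had positive log2 fold changes, 11 were higher and 0 lower at an unadjusted p under 0.05 (background 4.22% and 4.95%), and the median was 0.33. The medians within the 3 pairs were 0.24, 0.48 and 0.42. Psmd1, a base subunit of the 19S cap, was at 21.6, 18.1 and 23.9 CPM in sham and 29.8, 29.1 and 44.7 CPM in OGD libraries, without overlap (0.68 ± 0.22, adjusted p = 0.452). Psma5, a subunit of the 20S core, had a log2 fold change of 1.17 ± 0.40 (adjusted p = 0.452), but Sort1 in its region held 5.7027 times its count.

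For oxidative phosphorylation, 47 of 50 measured nuclear genes (51 listed) had positive log2 fold changes, 10 were higher and 0 lower at an unadjusted p under 0.05, and 15 were non-overlapping on the higher side and 0 on the lower (8.19% and 8.69% over all genes). The list median was 0.30, with 0.14, 0.53 and 0.38 in pairs 1 to 3. Atp5h, a subunit of the ATP synthase stalk, was at 9.86, 8.84 and 12.1 CPM in sham and 16.9, 19.3 and 18.3 CPM after OGD, without overlap (0.80 ± 0.22, adjusted p = 0.427; Ict1 in its region). Atp5e, the epsilon subunit, had a log2 fold change of 0.69 ± 0.25 (adjusted p = 0.479; Tubb1 in its region). Ribosomal protein genes had a median of 0.28 (0.10, 0.52 and 0.38 by pair; 0.14 without sham-miR-29 replicate 2, and 0.18 in the span-corrected fit with the block), with 55 of 63 measured (79 listed) positive and 11 higher, 0 lower at an unadjusted p under 0.05. Rpl7 was at 10.6, 8.46 and 11.8 CPM in sham and 18, 15.4 and 25 CPM in OGD libraries (0.88 ± 0.26, adjusted p = 0.427), and Rps14 had a log2 fold change of 0.72 ± 0.24 (adjusted p = 0.452; Gm8731 in its region). Of these lists 19 of 31, 27 of 50 and 41 of 63 members had a neighbour with at least 0.5 of their count. In each list the median was smallest in pair 1, whose OGD library lay nearest the sham group.

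The 13 protein genes of the mitochondrial genome had lower values after OGD, with a median of -0.47 and negative values in 13 of 13 genes and in 3 of 3 pairs each. None reached an unadjusted p under 0.05, and these rows share reads with each other, so they are not 13 separate measurements. The pair medians were -0.14, -0.89 and -0.40. The number of called genes was 2 with the mitochondrial rows left out of the library sizes and the test.

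Activity-regulated transcription factors lay on the lower side. Fosl2, the AP-1 subunit FRA-2, was at 36.02, 59.6 and 50.4 CPM in sham and 27, 22.8 and 16.8 CPM in OGD libraries. The groups did not overlap (-1.11 ± 0.22, adjusted p = 0.142), and the value passed in 7 of 26 alternatives, one of them the span-corrected fit with the block (-1.11 ± 0.20, adjusted p = 0.00482). Fos was at 43.6, 31.9 and 50.9 CPM and 22.04, 31.1 and 18.3 CPM, where OGD replicate 2 came closest to the sham range (-0.83 ± 0.24, adjusted p = 0.427; 0.0343 in the span-corrected fit with the block). The orphan nuclear receptor Nr4a3 stood at 15.2, 28.4 and 16.2 CPM in sham and 11.4, 9.06 and 7.69 CPM after OGD (-1.03 ± 0.30, adjusted p = 0.427). In contrast Junb (0.33 ± 0.20, Prdx2 in its region) and Ier3 (0.45 ± 0.24, Flot1 in its region with 13.247 times its count) had positive values, and Arc overlapped (15.9, 15.4 and 14.7 CPM in sham, 13.6, 19.3 and 9.13 CPM after OGD; -0.12 ± 0.25, adjusted p = 0.91). Of 21 measured immediate early genes (24 listed), 0 were higher and 4 lower at an unadjusted p under 0.05, with a median of -0.22.

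Homer1, a scaffold of the postsynaptic density with a short activity-induced isoform, was at 65.6, 66.5 and 52.7 CPM in sham and 37.7, 27.6 and 34.1 CPM in OGD libraries. All OGD libraries were below all sham libraries (-0.88 ± 0.19, adjusted p = 0.171; called in 4 of 25 alternatives). Dusp4, a phosphatase of MAP kinases, had a log2 fold change of -0.48 ± 0.19 (adjusted p = 0.502; Tnks in its region). The neurotrophin Bdnf overlapped between groups, at 9.86, 11.1 and 14.4 CPM in sham and 10.8, 6.30 and 8.65 CPM after OGD (-0.43 ± 0.26, adjusted p = 0.617). Of the 16 measured delayed activity-regulated genes (18 listed), 0 were higher and 3 lower at an unadjusted p under 0.05, and the median was -0.31. The median reached 0 or turned in sign in at least 1 alternative for the zinc, integrated stress response, HIF, glutamate transport, BCL2, p53, inflammatory, cholesterol and miR-29 target lists. The same held for pan-neuronal, astrocyte, oligodendrocyte, microglial, fibroblast and cycling markers. The plot of all lists places these groups side by side.

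**Figure D3:**
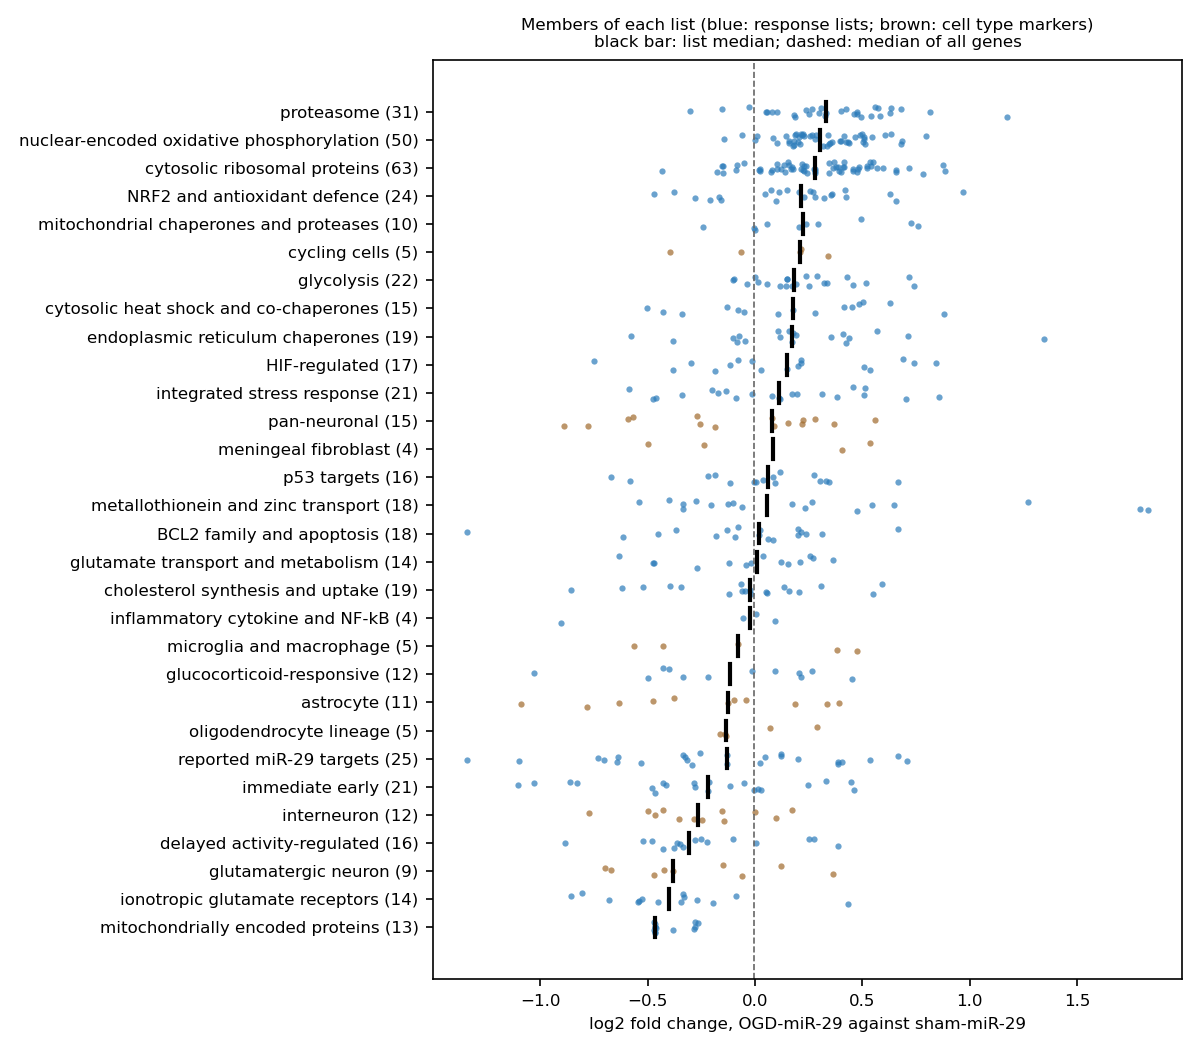
Log2 fold change of OGD-miR-29 against sham-miR-29 (x axis) for every measured member of each list with at least 3 members (rows; number measured in brackets), with response lists in blue, cell type markers in brown, the list median as a black bar and the median of all genes as a dashed line. Medians run from -0.47 for mitochondrially encoded proteins to 0.33 for the proteasome, and the spread within most lists is wider than the distance between their medians.

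Glutamate receptor subunits had lower values, and their size moved with gene length. Of 14 measured ionotropic receptor genes (15 listed), 13 had negative log2 fold changes, 0 were higher and 4 lower at an unadjusted p under 0.05, and the median was -0.40 (-0.10, -0.86 and -0.28 in pairs 1 to 3). The NMDA receptor subunit Grin2b was at 62.9, 103 and 52.97 CPM in sham and 51.3, 37.8 and 47.1 CPM in OGD libraries, and sham replicate 2 was the highest of the 6 (-0.68 ± 0.31, adjusted p = 0.541). The AMPA receptor subunits Gria2 (-0.55 ± 0.23, adjusted p = 0.519) and Gria3 (-0.86 ± 0.38, adjusted p = 0.531) were lower in 2 of 3 pairs, with overlapping groups. The receptor genes spanned 298.3 kb at the median, against 23 kb over all genes, and in the span-corrected fit with the block their median was -0.10.

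Glutamate uptake was represented by Slc1a2 and Slc1a3, the main transporters of astrocytes. Slc1a2 was at 35.6, 49.96 and 32.1 CPM in sham and 30.5, 25.99 and 17.8 CPM in OGD libraries, without overlap (-0.63 ± 0.23, adjusted p = 0.479). Slc1a3 was at 29.6, 21.1 and 30.3 CPM and 27.4, 29.5 and 21.6 CPM, which overlapped (-0.04 ± 0.22, adjusted p = 0.969), and its sign turned in 9 alternatives. In this bulk RNA, fewer cells of a type and less RNA per cell cannot be told apart. Among 14 measured genes of glutamate transport and metabolism (18 listed), 0 were higher and 1 lower at an unadjusted p under 0.05, and the median was 0.01. The transaminase Got1 (0.26 ± 0.19; Cnnm1 in its region) and the glutamine carrier Slc38a2 (-0.48 ± 0.26) separated the groups in opposite directions, neither with an unadjusted p under 0.05.

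Over the whole table, fold change depended on the genomic span of the gene. Genes were put into 5 classes of equal size by span. From the shortest to the longest class the median log2 fold change went from 0.14 through 0.12, 0.04 and -0.08 to -0.25. Genes with an unadjusted p under 0.05 followed: 167 higher and 59 lower in the shortest class (up to 5.3 kb), and 19 higher and 234 lower in the longest (from 79.41 kb). The slope of a library's log2 CPM deviation per doubling of span was -0.0332, 0.0171 and -0.0396 in the sham libraries and -0.0467, -0.0532 and -0.0635 in the OGD libraries, which did not overlap. After correction for this trend, with the block, 25 of 11924 genes were called (0.21%), 7 higher (0.0587%) and 18 lower (0.151%). The part of RNA quality or library preparation in the span trend was not tested.

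**Figure D4:**
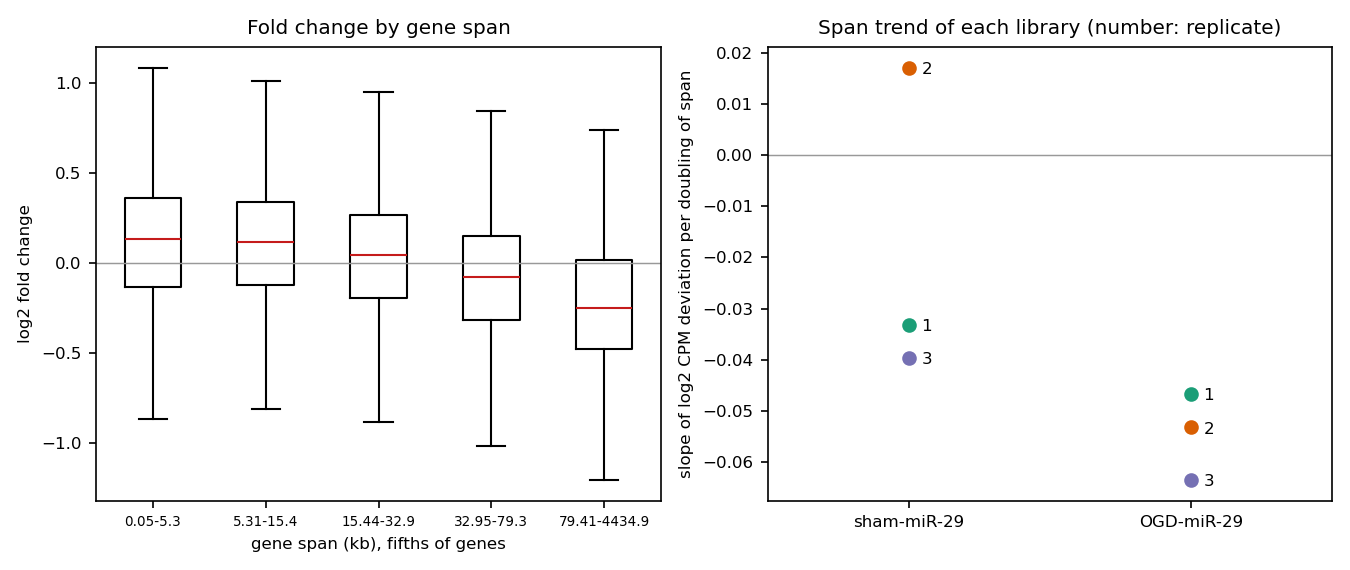
Left: log2 fold change of OGD-miR-29 against sham-miR-29 (y axis) by class of genomic span in kb (5 classes of equal size) (x axis), with boxes from the first to the third quartile, the median in red and whiskers to 1.5 times the box height. Right: slope of each library's log2 CPM deviation per doubling of span (y axis) in both groups, each point a library with its replicate number; the 3 OGD libraries lie below the 3 sham libraries.

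The 6 libraries alone with the replicate block gave the longest list of the quasi-likelihood fits, 141 of 11093 genes (1.27%), 25 higher (0.225%) and 116 lower (1.05%). The higher genes had a median span of 6.5 kb and the lower ones 101.3 kb. Of the 25 higher genes 18, and of the 116 lower genes 39, had a neighbour with at least 0.5 of their count, as did 7145 of all 12119 genes. In the span-corrected fit of all 11 libraries with the block, 7 of these 25 and 18 of these 116 were called. Named genes of these lists follow, with their values from the fit without the block.

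On the lower side, Dmxl1, a partner of the vacuolar proton pump, went from 32.2, 52.7 and 34.7 CPM in sham to 20.02, 11.4 and 17.8 CPM in OGD libraries, without overlap (-1.25 ± 0.26, adjusted p = 0.171; called in 8 of 26 alternatives). The histone genes Hist1h3c and Hist1h1c lie next to each other and hold each other's reads, so they count as 1 locus. Hist1h3c was at 65.98, 51.1 and 61.7 CPM in sham and 35.5, 33.1 and 25.96 CPM after OGD (-0.91 ± 0.20, adjusted p = 0.171), and Hist1h1c had a log2 fold change of -0.90 ± 0.21. No OGD library reached a sham library at this locus. Nrp1, a receptor for semaphorins and VEGF (-1.10 ± 0.27), Hs3st1, a heparan sulfate sulfotransferase (-1.18 ± 0.28), C1ql3, a secreted synaptic protein (-1.23 ± 0.28; Pter in its region), Tmem170b (-1.20 ± 0.27) and Gm15834 (-1.20 ± 0.26; Fam126b in its region) were also lower in 3 of 3 pairs, with adjusted p-values of 0.171 to 0.26.

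On the higher side were Pogz, a zinc finger protein of chromatin, Pddc1 and the sulfotransferase Sult2b1. Pogz was at 32.6, 28.1 and 41.9 CPM in sham and 51.6, 54.4 and 80.8 CPM in OGD libraries (0.85 ± 0.21, adjusted p = 0.307), but the proteasome gene Psmb4 in its region held 0.978 of its count. Pddc1 (1.00 ± 0.26, adjusted p = 0.346) shares reads with the transaldolase gene Taldo1, and Sult2b1 (1.28 ± 0.36, adjusted p = 0.427) with Lmtk3, which held 3.5124 times its count. All 3 separated the groups, and in all 3 the gene that the reads came from cannot be named.

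Cell death lists had members of either direction at an unadjusted p under 0.05, in numbers near the shares over all genes (4.22% higher, 4.95% lower). Bcl2l11, the BH3-only protein BIM and a reported miR-29 target, was at 6.07, 7.30 and 6.43 CPM in sham and 2.57, 3.54 and 1.44 CPM in OGD libraries, without overlap (-1.34 ± 0.36, adjusted p = 0.423; called in 3 of 25 alternatives). Bbc3, the BH3-only protein PUMA, also a reported target, was at 9.86, 8.07 and 10.3 CPM in sham and 11.02, 17.3 and 18.3 CPM after OGD, wholly above (0.67 ± 0.31, adjusted p = 0.535; Sae1 in its region). In the BCL2 family and apoptosis list 1 gene was higher and 1 lower of 18 measured (25 listed) at an unadjusted p under 0.05, with a median of 0.02. The p53 target list had 1 higher and 1 lower of 16 (19 listed) and a median of 0.06.

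Reported miR-29 targets were measured against a sham group that also carried the virus, so their values compare OGD with sham and not miR-29 with empty virus. Of 25 measured (32 listed), 3 were higher and 6 lower at an unadjusted p under 0.05, and the median was -0.13. This sign was not stable, since the median was 0.02 in the span-corrected fit with the block and 0.20 among genes alone in their region. Col3a1, a fibrillar collagen (0.53 ± 0.25, adjusted p = 0.539), was among the higher ones. The histone deacetylase Hdac4 (-0.73 ± 0.28, adjusted p = 0.486) and the methylcytosine dioxygenase Tet3 (-0.71 ± 0.29, adjusted p = 0.506; Bola3 in its region) were among the lower ones. Dnmt3a, a DNA methyltransferase, overlapped between groups at 42.1, 59.2 and 37.5 CPM in sham and 40.2, 45.3 and 40.9 CPM after OGD (-0.13 ± 0.20, adjusted p = 0.85), with a sign that turned in 5 alternatives.

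Among further lists, glucocorticoid-responsive genes had 0 higher and 2 lower of 12 measured (16 listed) at an unadjusted p under 0.05, and a median of -0.12. Klf9, a Krüppel-like factor of that list, was at 14.8, 10.4 and 13.1 CPM in sham and 8.08, 5.12 and 4.33 CPM after OGD, without overlap (-1.03 ± 0.30, adjusted p = 0.427), and Sgk1 was the other (-0.50 ± 0.24, adjusted p = 0.542). Cholesterol synthesis and uptake genes had 0 higher and 2 lower of 19 (22 listed) and a median of -0.02. Srebf2, the master regulator of the pathway, had a log2 fold change of -0.86 ± 0.26 (adjusted p = 0.452). Of the inflammatory cytokine and NF-kB list only 4 of 22 genes were measured, with 0 at an unadjusted p under 0.05 and a median of -0.02.

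Markers of neurons and astrocytes were measured in all 6 libraries. The 15 pan-neuronal markers summed to 1186 to 1324 CPM in sham and 1066 to 1233 CPM in OGD libraries, and the 11 measured astrocyte markers (14 listed) to 154.1 to 176.4 and 150.8 to 159.1 CPM. Gfap was not analysed here. Interneuron markers (12 of 15 measured) summed to 454.4 to 580.7 CPM in sham and 288.0 to 467.9 CPM in OGD libraries, and glutamatergic markers (9 of 10) to 75.6 to 99.16 and 53.36 to 75.5 CPM. The glutamatergic ranges nearly met (lowest sham 75.6, highest OGD 75.5 CPM), and OGD replicate 3 was lowest in both lists. Of the 9 glutamatergic members 1 separated the groups downward and 0 upward (8.69% and 8.19% over all genes). Medians were 0.08 for pan-neuronal, -0.12 for astrocyte, -0.27 for interneuron and -0.38 for glutamatergic markers, with 1, 0, 0 and 0 higher and 4, 2, 1 and 2 lower at an unadjusted p under 0.05. The part of cell composition in the lower neuronal genes was not tested.

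Single markers differed in direction within a cell type. The RNA-binding protein gene Elavl4 was at 15.9, 12.3 and 15.9 CPM in sham and 8.27, 4.33 and 11.5 CPM after OGD (-0.89 ± 0.29, adjusted p = 0.452), and Dcx, which binds microtubules in young neurons, had a log2 fold change of -0.59 ± 0.23. The neurofilament gene Nefl, also pan-neuronal, had a positive value of 0.56 ± 0.21 (adjusted p = 0.479; Nefm in its region). The cortical projection neuron factor Bcl11b (-0.70 ± 0.28) and the astrocyte pump subunit Atp1b2 (-1.09 ± 0.35; Trp53 in its region) were lower in 3 of 3 pairs. Markers of other cells were few: 5 of 12 oligodendrocyte lineage genes (30.36 to 40.11 CPM summed in sham, 32.21 to 38.2 after OGD; median -0.13), 5 of 14 microglial genes (41.12 to 56.12 and 47.76 to 56.73 CPM; -0.08), 4 of 8 meningeal fibroblast genes (23.89 to 26.74 and 24.62 to 32.3 CPM; 0.08), 5 of 12 cycling genes (39.2 to 52.33 and 48.13 to 69.23 CPM; 0.21) and 1 of 12 endothelial and mural genes (6.534 to 7.963 and 7.532 to 16.83 CPM; 0.57). Only the fibroblast list had a member at an unadjusted p under 0.05, Col3a1, and the defining microglial genes P2ry12, Tmem119 and C1qa were not analysed here.

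The OGD response under miR-29 was set against that under the empty virus, which used no library in common (OGD-empty n = 3, sham-empty n = 2). The difference between the responses was called for 1015 of 12119 genes (8.38%), 572 in the higher (4.72%) and 443 in the lower direction (3.66%), far more than the 2 genes called for the miR-29 response alone. Across genes the fold changes under the 2 viruses had a Pearson correlation of -0.431, or -0.338 after the span correction, a description over genes that are not independent. The empty-virus side carries a large span trend of its own, with library slopes of 0.0575, 0.1391 and 0.0642 after OGD.

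Mt1 and Mt2 had positive values under both viruses, 0.78 ± 0.28 and 0.81 ± 0.27 with the empty virus, and the difference did not pass the test (adjusted p = 0.07 and 0.0803). Slc30a1 (0.89 ± 0.35 with the empty virus, adjusted p of the difference = 0.607) and Hmox1 (0.48 ± 0.33, 0.456) likewise had the same sign. A difference was called for Mt3 (-1.02 ± 0.29 with the empty virus, adjusted p of the difference = 0.0163), Ddit3 (-0.50 ± 0.24, 0.0157) and Hspa8 (-0.29 ± 0.23, 0.0228), each with opposite signs under the 2 viruses. The difference was called in the higher direction for 26 of 50 oxidative phosphorylation genes and 19 of 63 ribosomal protein genes, and in the lower direction for 0. The shares over all genes were 4.72% and 3.66%. The empty-virus medians of these lists were -0.81 and -0.85. For the glutamate receptors the difference was called in the higher direction for 0 of 14 and in the lower for 3, with an empty-virus median of 1.11. Fos had lower values under both viruses (-1.11 ± 0.30 with the empty virus, adjusted p of the difference = 0.666), whereas the difference was called for Fosl2 (0.30 ± 0.27, 0.0198).

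**Figure D5:**
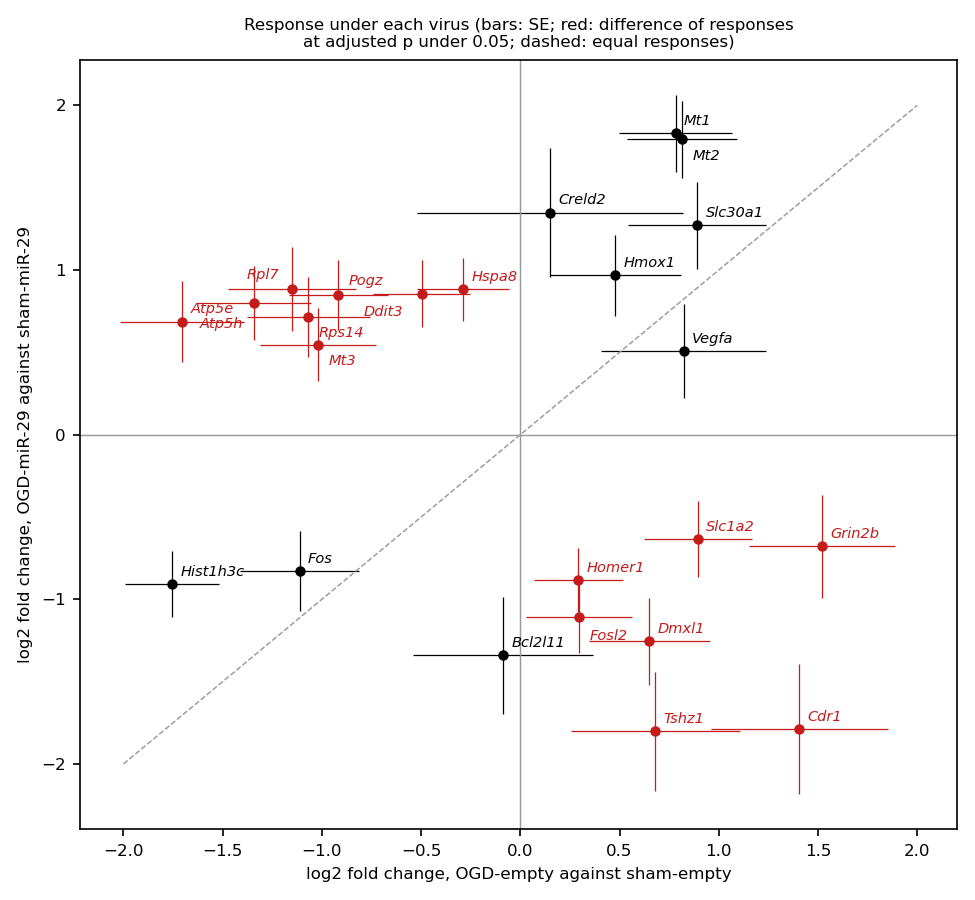
Log2 fold change of OGD against sham under the empty virus (x axis) and under the miR-29 virus (y axis) for 24 named genes, with standard errors as bars, in red where the difference between the responses had an adjusted p under 0.05 and with a dashed line for equal responses. Mt1, Mt2, Slc30a1 and Hmox1 are positive on both axes, and the red genes lie in the quadrants of opposite sign.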

How the data were processed

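RNA was sequenced from cortical cultures in 4 groups of 3 libraries, of which the OGD-miR-29 and sham-miR-29 groups were compared. Values are raw counts of reads per gene symbol, as deposited by the authors. Per the submitters' processing notes, which give no role or order, the tools were featureCounts 1.4.3-p1, STAR 2.5.0a and edgeR, with build mm10. The sources used here give no annotation, strand setting or counting region. Comparison tables made by the authors were not used here, and 0 columns were left unmapped. The column labelled sham-empty replicate 3 did not hold read counts (sum 22859, Spearman correlation with the other libraries 0.0438 to 0.0978) and was left out, so 11 libraries were fitted. Of its values 92.5% equal the number of same-strand genes in the assumed region, the gene plus 10 kb downstream. Symbols were matched to GENCODE M21 (GRCm38) for 11947 of 12145 genes, 591 through an older symbol.

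Genes were tested with edgeR 4.0.16 (R 4.3.3; TMM, filterByExpr, robust quasi-likelihood F test, 4 group means, no block), with Benjamini-Hochberg adjustment over 12119 genes and calls at an adjusted p under 0.05; the standard error is the log2 fold change over the square root of F. Alternatives, with limma 3.58.1 and DESeq2 1.42.0 and a lowess correction of each library for gene span among them, were fixed beforehand except for the likelihood ratio tests and the block without each replicate, chosen after seeing the data. Because the design text gives each replicate set its own dissection day, the numbers pair the cultures. Deviations of same-numbered sham and OGD cultures correlated at 0.0067, 0.0022 and 0.1253. Those of differently numbered sham and OGD cultures correlated at -0.2447 to 0.2015, so same-numbered cultures were not more alike by this measure. The test was checked on simulated data. Between replicate libraries of a group the chi-square per degree of freedom was 2.24 to 9.09. Reads counted for several genes raise this value, so it cannot tell replicate differences from sampling noise. The comparison, the 31 gene lists and the members were chosen with earlier results of these data known. Named genes were those called with or without the block, the 12 with the smallest p in each direction (mean of at least 20 counts, 3 of 3 pairs alike), up to 2 per list and direction, and a fixed set of stress, zinc, activity and glutamate genes; the values of 77 of these 144 are printed; some results are not reported here.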

Additional observations from a re-analysis of the deposited data

Results flagged for a closer look

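The response to OGD under the miR-29 virus was set against that under the empty virus, and a test of the difference itself (edgeR's quasi-likelihood F test, Benjamini-Hochberg adjusted over all 12119 genes) was passed by 30 of the genes named in the report. Values are the log2 response under miR-29 minus that under empty virus. The sham-empty group had n = 2, and adjusted p-values were 0.00663 to 0.0498. Its libraries were shallow, with 231500 and 379010 counts outside the mitochondrial rows.

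Genes of energy metabolism and protein synthesis had the higher response under miR-29: Atp5e (2.39) and Atp5h (2.14) of the ATP synthase, Rpl7 (2.03) and Rps14 (1.79) of the ribosome, and the glycolytic enzymes Tpi1 (1.43) and Eno2 (1.05). Part of each difference was a negative value under the empty virus. In the same order these were -1.70, -1.34, -1.15, -1.07, -0.72 and -0.59, while none of these genes was called under miR-29. The same direction was found for Prdx5 (1.99) and Mt3 (1.57), for Pogz (1.77) and Pddc1 (1.68), for the stress genes Ddit3 (1.36), Hspa8 (1.17) and Atf4 (1.07), and for the immediate early genes Ier3 (1.42) and Junb (1.06).

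A lower response under miR-29 was found for the synaptic and glutamate genes Gria3 (-2.24), Grin2b (-2.20), Gria2 (-1.30), Homer1 (-1.18), Slc1a2 (-1.53) and Slc7a11 (-1.51). Part of each difference was a positive value under the empty virus. In the same order these were 1.38, 1.52, 0.76, 0.29, 0.90 and 1.78, while none of these genes was called under miR-29. The value of Slc7a11 was positive under miR-29 as well (0.27). Slc7a11 did not pass with the replicate block (adjusted p = 0.0517), which the other 29 genes did. Transcription and chromatin regulators with a lower response were Tshz1 (-2.48), Arnt (-2.17), Hdac4 (-1.81) and Fosl2 (-1.40). Their values under the empty virus were 0.68, 1.42, 1.08 and 0.30. Cdr1 (-3.20), Dmxl1 (-1.90), Gm15834 (-1.64), Nrp1 (-1.59) and Dcx (-1.30) completed the set, with 1.41, 0.65, 0.44, 0.49 and 0.71 under the empty virus. Gene span moved with this comparison, since OGD-empty libraries had positive and OGD-miR-29 libraries negative span slopes; its part in these differences was not tested gene by gene. After correction for span, with the replicate block, 934 of 11924 genes differed between the responses, against 1861 of 12119 with the block alone and 1015 with neither.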

How the results depend on the processing

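The number of called genes was 2, both higher, with DESeq2, limma-voom, DESeq2 size factors, other count filters, the mitochondrial rows left out, and any 1 library of the compared groups left out. It was 5 in the 6 libraries alone, 18 with the span correction and 25 with the replicate block added to that. Omitting a replicate from all groups gave 0 to 8 genes. The fit with the replicate block called 5, and 141 in the 6 libraries alone; its range over omitted replicates was 2 to 39. Likelihood ratio tests in the 6 libraries, chosen after seeing the data, called 63 without and 204 with the replicate block, most of them lower (49 and 164). Among 1467 genes alone in their counting region 3 were called, all lower. Genes at an unadjusted p under 0.05 numbered 169 among these, and in all other settings 473 (without sham-miR-29 replicate 2) to 1719, against 1111. The difference between the responses was called for 1861 genes with the replicate block, against 1015.

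Over the 77 printed genes, 1766 of 1930 values kept direction and side of the threshold, 138 passed it in addition, 2 no longer passed (Mt1 and Mt2 without replicate 1) and 24 changed sign, all in genes near 0. Leaving out libraries or replicates gave -0.17 to 0.11 for Mtf1, -0.25 to 0.17 for Slc1a3, -0.03 to 0.59 for Slc7a11, -0.37 to 0.08 for Arc and -0.27 to 0.10 for Dnmt3a. With the replicate block, the values that changed sign were 0.12 for Mtf1 and 0.04 for Slc1a3 without replicate 1, 0.03 for Dnmt3a without replicate 2, and 0.17 for Slc1a3, -0.03 for Slc7a11 and 0.04 for Arc without replicate 3. With the span correction, without and with the replicate block, Mtf1 was 0.01 and 0.02, Slc1a3 0.08 and 0.10, and Dnmt3a 0.05 and 0.05. The cause of these changes was not tested. Of 766 list medians 699 moved by less than the spread of the pair medians. At a median of 19 to 49 counts per gene in these libraries, differences can go uncalled, and not only small ones. On simulated counts the test called 32% of genes changed by a log2 fold of 1. It called 95% of those changed by a log2 fold of 2.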

Other observations

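Genes described here were chosen after their values had been seen, from the 141 called in the 6 libraries alone with the replicate block, so their direction is no test. None of them was called in the fit of 11 libraries without the block. The 116 lower genes included some of neuronal adhesion and axon guidance: the protocadherin Pcdh17 (-1.25 ± 0.28, adjusted p = 0.0136), Ncam2 (-0.96 ± 0.24), the receptor phosphatases Ptprz1 (-1.08 ± 0.23) and Ptprd (-0.85 ± 0.21), Cadm2 (-0.92 ± 0.22) and the Slit receptor Robo2 (-0.76 ± 0.21). The GABA-A receptor subunits Gabra2 (-1.03 ± 0.26) and Gabrb1 (-0.89 ± 0.24) and the potassium channel Kcnd2 (-0.78 ± 0.22) were also called lower. None of these 9 genes was called in the span-corrected fit of 11 libraries with the block.

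Lower genes of the same set also included the imprinted genes Zdbf2 (-1.20 ± 0.24, adjusted p = 0.00568), Peg10 (-0.96 ± 0.23, adjusted p = 0.0224) and Peg3 (-0.83 ± 0.22, adjusted p = 0.0382). Plagl1 (-1.36 ± 0.38, adjusted p = 0.0462) and Ube3a (-0.80 ± 0.22, adjusted p = 0.0443), also imprinted, were in the set too. Of all these imprinted genes, Peg10 was called in the span-corrected fit with the block. Imprinted genes were not tested as a group. On the higher side was Bhlhe40, a transcriptional repressor that responds to hypoxia and to activity (1.68 ± 0.45, adjusted p = 0.0382; adjusted p = 0.414 in the fit of 11 libraries).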
